A study of Mus musculus with 2 samples.

Results

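The 37 genes described here encode the machinery of autophagy and of LC3-associated phagocytosis, taken as a list of gene names with no cutoff on their values. All 37 were found in a table of 13549 genes, and all 37 passed the minimum of 20 reads over both libraries that 13037 genes passed. They were divided by role into 5 genes of the initiation complex, 7 of the class III phosphatidylinositol 3-kinase (PI3K) complexes, 5 of membrane supply and lipid transfer, 10 of the conjugation machinery, 5 of the ATG8 family and 5 cargo receptors.

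The data are bulk RNA sequencing of microglia sorted by flow cytometry from CD11c-Cre-gfp;Rosa-TDTom mice on postnatal day 5. In these animals the promoter of CD11c (gene *Itgax*) drives a Cre recombinase with GFP, and Cre switches on the red reporter TdTomato for good. Cd11c-active is 1 library from 4041 cells carrying both GFP and TdTomato, and Cd11c-lineage is 1 library from 5441 cells carrying TdTomato without GFP. Both came from a single pool of 8 retinas, labelled as 4 female and 4 male. All cells of both libraries thus carry the recombined reporter, no cell without a history of Cre activity was profiled, and the Cd11c-active cells also contain GFP. No library has a replicate, so no p-value is given and each difference below is one between these libraries. The question addressed is which genes differ between cells using the CD11c promoter at sorting and cells that, by the design of the reporter, had used it earlier. *Itgax* itself had 2409 and 1698 reads (195 and 121 CPM, that is, counts set to equal library sizes), a log2 ratio of 0.69 with a widened interval, defined below, of -0.15 to 1.62, so its transcript was abundant in both libraries and did not separate them beyond their scatter.

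In autophagy a double membrane grows around cytoplasm or an organelle and carries it to the lysosome. The ULK1 complex starts the process, the PI3K complex around beclin 1 marks the membrane with a phosphoinositide, and 2 ubiquitin-like conjugation reactions attach LC3 and GABARAP proteins, the ATG8 family, to the membrane lipid phosphatidylethanolamine. Cargo receptors, many of them through ubiquitin, bind cargo on one side and ATG8 proteins on the other. In LC3-associated phagocytosis a phagocyte puts LC3 on the single membrane of a phagosome that holds, for example, an apoptotic cell. That pathway uses Rubicon, UVRAG, the conjugation machinery and the phagocyte NADPH oxidase, and does not need the ULK1 complex. Microglia, which clear dying neurons in the developing retina, are phagocytes of this kind.

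Cd11c-active held 12943998 reads and Cd11c-lineage 13402625. Each ratio below sets Cd11c-active against Cd11c-lineage, with libraries scaled by TMM. All 8 microglial markers were well covered in both (summed level 20150 and 19469 CPM). Endothelial markers moved with the sort: 8 of 8 were higher in Cd11c-active, with summed levels of 646 and 73.7 CPM, and *Cldn5*, *Tek*, *Flt1*, *Esam* and *Plvap* had 0 reads in Cd11c-lineage. The 4 pericyte markers with at least 20 reads had 0 reads in Cd11c-lineage (summed level 61.8 CPM in Cd11c-active). Of 9 retinal neuron markers with as many reads, 8 were lower in Cd11c-active, with summed levels of 125 and 254 CPM, and *Pdc* had 0 reads there. The 4 border macrophage markers with as many reads were lower in Cd11c-active (21.2 and 113 CPM), and *Lyve1*, *Cd163* and *Ms4a7* had 0 reads there. Of 4 monocyte and neutrophil markers with as many reads, *Plac8*, *S100a8* and *S100a9* had 0 reads in Cd11c-active and *Ccr2* had 0 in Cd11c-lineage (2.83 and 17.0 CPM in sum). Of 4 Muller glia and astrocyte markers 2 were higher and 2 lower in Cd11c-active, among them *Rlbp1* (94 and 0 reads) and *Slc1a3* (73 and 642). The single dendritic cell marker with as many reads, *Zbtb46*, had 200 and 0. Autophagy genes are expressed in nearly all cell types, and the part of these other cells in the ratios below was not tested. In bulk libraries, more cells that express a gene and more RNA of it per cell cannot be told apart.

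The autophagy genes as a whole were close to equal in the libraries. Together they had 35174 Cd11c-active reads and 37811 Cd11c-lineage reads, a log2 ratio of the summed reads of 0.08, which was -0.05 when scaled to library totals. Of the 37 genes, 20 had a ratio above 0 and 17 below. Their median log2 ratio was 0.13, against 0.01 over all 13037 genes. Under library totals these medians were -0.01 and -0.13. Counting error alone understates the scatter between these libraries, so each ratio has a second, widened 95% interval. It uses reads divided by 83.9, the factor by which the variance of the log2 ratio exceeded the counting variance in genes with at least 800 and under 1600 reads. The widened interval of the summed reads ran from -0.11 to 0.28.

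Among the 37 genes 6 were more than 2-fold higher in Cd11c-active (*Atg13*, *Atg101*, *Atg2a*, *Atg9a*, *Atg5* and *Gabarapl1*) and 3 more than 2-fold lower (*Atg10*, *Atg16l2* and *Calcoco1*). Of all genes with at least 20 reads, 23.3% were that much higher and 21.6% that much lower, 44.9% together. The 9 genes are 24.3% of the 37. Such differences were found in 85.6% of genes with at least 20 and under 200 reads and in 2.61% of those with 3200 or more, so the background was also taken at like abundance. Of the 29 autophagy genes with at least 200 and under 4000 reads over both libraries 7 were past 2-fold (24.1%), against 30.4% of all genes in that range (16.2% higher and 14.2% lower). Of the 20 with at least 1000 reads 3 were past it (15.0%), against 9.57% of all such genes (5.43% higher and 4.14% lower). These 3, *Atg2a*, *Gabarapl1* and *Calcoco1*, had 1099 to 1164 reads, where 21.8% to 24.0% of the genes nearest in abundance were past 2-fold. For each of the 37 genes the 500 genes nearest in summed reads were taken, and on average 26.7% of these were past 2-fold. The share of autophagy genes past 2-fold was thus near the background. The widened interval excluded 0 for 0 of the 37 genes in either direction, against 2.91% of all genes tested (2.04% higher and 0.867% lower). Every one of the 37 ratios lay within the middle 95% of the ratios of its 500 nearest genes. Exons of 14 of the 37 genes overlap another annotated gene on the opposite strand, and since the use of strand in counting is not stated, such reads are uncertain. The overlap on the opposite strand was longest for *Becn1* (3104 exon bases), *Uvrag* (1589) and *Atg4d* (1405).

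**Figure D1:**
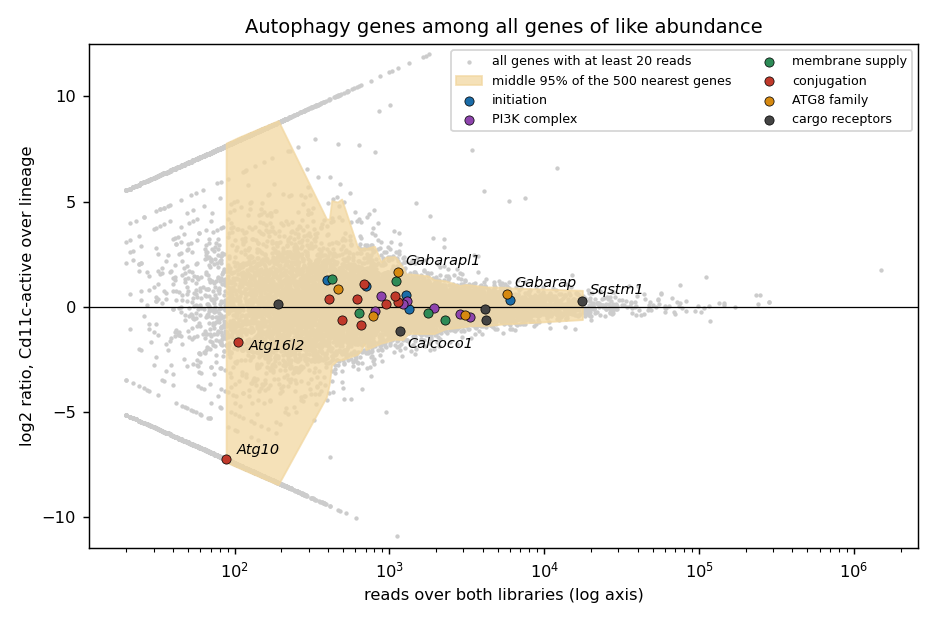
Log2 ratio of Cd11c-active over Cd11c-lineage (vertical axis) against reads over both libraries (horizontal log axis) for all 13037 tested genes (grey) and the 37 autophagy genes (coloured by role), with the middle 95% of the 500 nearest genes as a band drawn at the autophagy genes' abundances and joined by straight lines. All 37 autophagy genes lie inside the band, which is widest at those with under 200 reads and narrowest at the gene with the most.

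Per length the same few genes led in both libraries. Levels between genes are given as reads per kilobase of the longest annotated transcript and scaled library size (RPKM). *Sqstm1* was highest, at 272 RPKM in Cd11c-active and 230 in Cd11c-lineage, and *Gabarap* followed with 195 and 129. All other autophagy genes were at or below 45.0 RPKM in both libraries, with *Ulk2* at 44.1 and 35.9 and *Tax1bp1* at 29.0 and 45.0. At the lower end *Optn* had 2.91 and 2.64, *Atg4d* 2.95 and 2.30, and *Atg16l2* 0.276 and 0.915. *Atg10* was lowest in Cd11c-active (0 and 3.96), and *Atg9a* (5.55 and 2.26) was below *Atg4d* in Cd11c-lineage only. Over the 37 genes the levels of the libraries had a Spearman rho of 0.837, in which both libraries share the same gene lengths and the same pool of retinas. Of the 10 highest genes 8 in Cd11c-active and 9 in Cd11c-lineage were also among the 10 highest per length of all annotated exons.

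**Figure D2:**
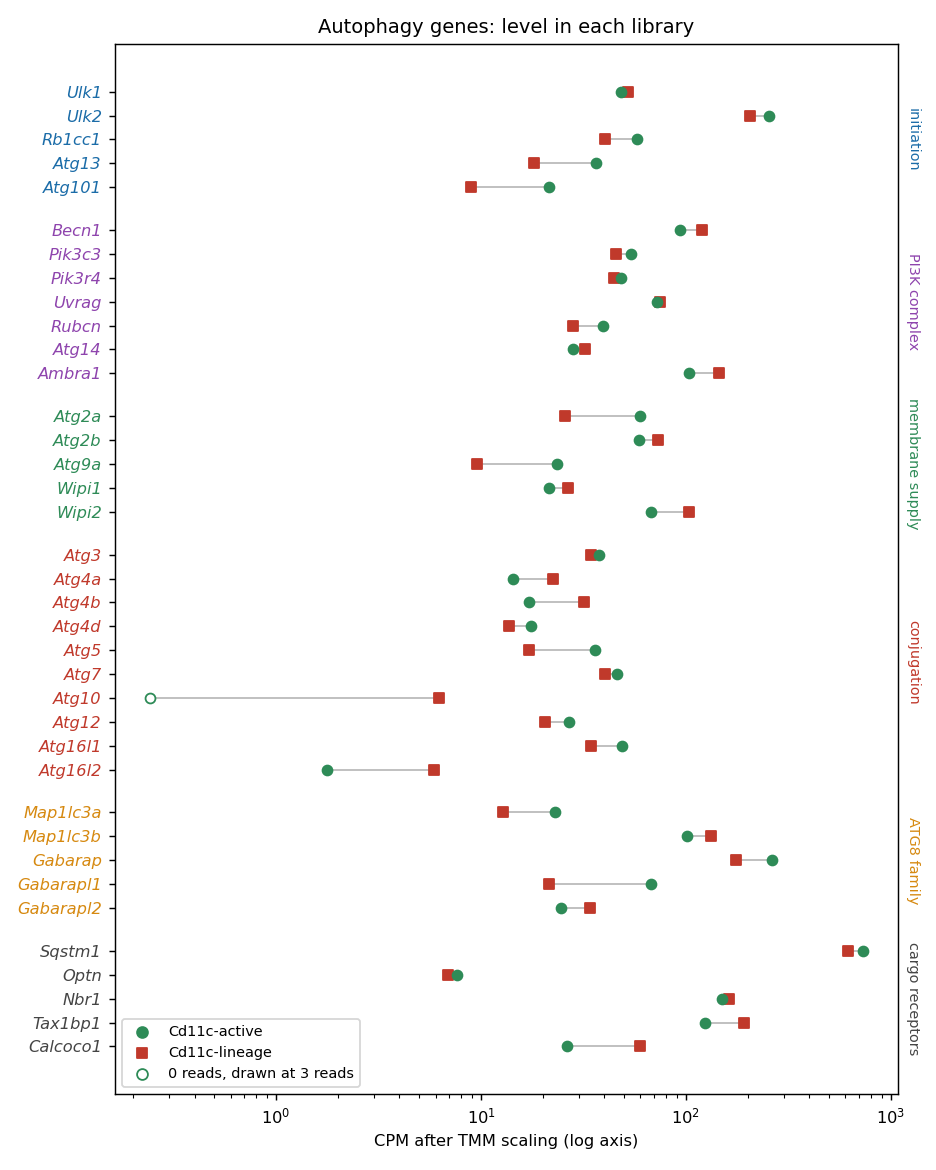
Level of each of the 37 autophagy genes in Cd11c-active (circles) and Cd11c-lineage (squares) in CPM after TMM scaling on a log axis, ordered by role, with 1 library per group and no error bars. *Sqstm1* is highest in both, the grey link is longest for *Atg10* (open circle, 0 reads), and most pairs lie close together.

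Promoter windows from RefSeq (GRCm38.p6, 250 bases before to 50 after each start) were searched on both strands because MiT/TFE factors, which drive autophagy and lysosomal genes, bind the letters CACGTG. Windows were found for 31 of the 37 genes, and not for *Atg12*, *Atg16l1*, *Becn1*, *Map1lc3a*, *Pik3c3* and *Rb1cc1*. CACGTG was present for 5 of the 31 (16.1%), against 8.09% of 27025 genes with a window. The longer form TCACGTGA, which contains the former, was present for *Atg3* (3.23% of the 31, and 1.12% of all genes). The stretches that hold them are shown because these 5 genes cover recruitment of the PI3K complex (*Atg14*), its inhibitor (*Rubcn*) and the conjugation steps (*Atg3*, *Atg5* and *Atg7*). *Atg3* has CACGTG at 2 places, given as separate stretches that overlap. Capitals mark the motif, and each stretch reads 5′ to 3′ on the gene's own strand:
*Atg3*, first site (chr16:45158715-45158760, plus strand): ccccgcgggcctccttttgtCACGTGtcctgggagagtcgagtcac
*Atg3*, second site (chr16:45158737-45158784, plus strand): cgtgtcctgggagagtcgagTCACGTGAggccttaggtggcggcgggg
*Atg5* (chr10:44268305-44268350, plus strand): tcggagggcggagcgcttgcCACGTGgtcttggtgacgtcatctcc
*Atg7* (chr6:114670944-114670989, plus strand): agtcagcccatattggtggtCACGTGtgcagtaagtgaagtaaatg
*Atg14* (chr14:47568410-47568455, minus strand): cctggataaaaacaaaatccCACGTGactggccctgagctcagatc
*Rubcn* (chr16:32868429-32868474, minus strand): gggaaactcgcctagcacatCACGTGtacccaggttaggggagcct

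The log2 ratios of these 5 genes ran from -0.19 for *Atg14* to 1.06 for *Atg5*, on both sides of 0. The antioxidant response element TGACNNNGC, bound by NRF2, matched for 4 of the 31 genes (12.9%), *Atg13*, *Map1lc3b*, *Tax1bp1* and *Ulk2*, and for 14.0% of all genes. Their ratios also lay on both sides of 0, from -0.63 to 1.002. A match of letters is a description of the window and not a measured binding site.

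The initiation genes encode the ULK1 complex, a kinase with its scaffold and adaptors, which responds to nutrient and energy signals. Their summed reads were 5156 in Cd11c-active and 4579 in Cd11c-lineage, a log2 ratio of 0.36 with a widened interval of -0.21 to 0.89. The median ratio was 0.53, with 4 of 5 genes above 0. *Ulk2*, a kinase related to *Ulk1*, carried 61.9% of the group's reads.

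*Ulk2* had 3127 Cd11c-active reads and 2898 Cd11c-lineage reads, a log2 ratio of 0.30 (widened -0.44 to 0.98). *Ulk1*, the kinase better known in autophagy, had 598 and 736 reads, for a ratio of -0.11 (-1.84 to 1.42). Per length *Ulk1* was at 9.29 and 10.05 RPKM, below *Ulk2* in both libraries. *Ulk1* made up 16.1% of the reads of this pair of kinases in Cd11c-active and 20.3% in Cd11c-lineage.

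*Rb1cc1*, which encodes the scaffold FIP200, had 716 and 564 reads, for a ratio of 0.53 (widened -1.04 to 2.21). *Atg13*, the adaptor that links the kinase to FIP200, had 449 and 255 reads, for a ratio of 1.002 (-1.44 to 3.61). It was past 2-fold by the narrowest margin of all and fell short of it under 4 alternatives, among them library totals (0.87). *Atg101*, which stabilises ATG13, had 266 and 126 reads, for a ratio of 1.26 (-2.35 to 4.35), and 0.73 after correction for transcript length and GC content. The ratios of the kinases were thus small, and the thinly covered adaptors had more reads in Cd11c-active, all with widened intervals that include 0.

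In the PI3K complexes 0 of 7 genes were past 2-fold, against 30.4% of all genes with at least 200 and under 4000 reads and 4.8% to 31.8% of the 500 genes nearest to each. They had 5423 Cd11c-active reads and 6885 Cd11c-lineage reads, a log2 ratio of -0.16 (widened -0.64 to 0.34). The median was -0.05, with 3 genes above 0 and 4 below.

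The core of the complex had ratios on both sides of 0, with widened intervals that include 0 and reach past 2-fold. *Pik3c3*, the catalytic subunit VPS34, had 667 and 640 reads, for a log2 ratio of 0.25 (widened -1.43 to 1.80). *Pik3r4*, its regulatory subunit VPS15, had 595 and 623 reads, for a ratio of 0.12 (-1.55 to 1.93), which was -0.02 under library totals. *Becn1*, the scaffold beclin 1, had 1153 and 1692 reads, for a ratio of -0.37 (-1.43 to 0.73). Its exons overlap those of *Cntd1* on the opposite strand, which had 0 and 36 reads.

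The subunits that set the place of the complex also had widened intervals that include 0. *Atg14*, which directs it to autophagy initiation, had 349 and 453 reads, for a log2 ratio of -0.19 (widened -2.47 to 2.08). Its exons share 239 bases with *Gm49004* on the opposite strand, which had 0 and 139 reads, so the reads of *Atg14* are uncertain. *Uvrag*, which replaces ATG14 in the endosomal form used on phagosomes, had 891 and 1052 reads, for a ratio of -0.05 (-1.36 to 1.22). *Rubcn*, encoding Rubicon, which restrains autophagosome maturation and is required for LC3-associated phagocytosis, had 487 and 394 reads, for a ratio of 0.49 (-1.53 to 2.50). Exons of *Rubcn* share 171 bases with *Fyttd1* on the opposite strand, which had 604 and 899 reads. Neither *Uvrag* nor *Rubcn*, the genes tied to the phagosomal form, differed beyond the scatter of its neighbours in abundance. *Ambra1*, an activator of beclin 1 and the member of this group with the most reads, had 1281 and 2031 reads, for a ratio of -0.48 (-1.53 to 0.50).

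The genes of membrane supply were split, with 2 of 5 more than 2-fold higher in Cd11c-active and the other 3 below 0, against 23.3% of all genes that much higher and 16.2% of those with at least 200 and under 4000 reads. Their reads summed to 2856 and 3353, a log2 ratio of -0.04 (widened -0.75 to 0.65), with a median of -0.31. Without *Wipi2*, the gene with the most reads, the sum turned to 0.28 (-0.64 to 1.14). The lipid transfer proteins ATG2A and ATG2B, which feed phospholipid into the growing membrane, had ratios of opposite sign.

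*Atg2a* had 740 Cd11c-active reads and 359 Cd11c-lineage reads, a log2 ratio of 1.23 (widened -0.49 to 3.51). *Atg2b* had 732 and 1032 reads, for a ratio of -0.31 (-1.65 to 1.14). Its exons share 383 bases with *Gskip* on the opposite strand, which had 247 and 84 reads, so its reads and the split of the pair are uncertain to that extent. *Atg2a* thus made up 50.3% of the pair's Cd11c-active reads and 25.8% of its Cd11c-lineage reads. This split does not depend on library scaling, and its log2 odds ratio was 1.54 with a counting interval of 1.31 to 1.77 and a widened one of -0.80 to 4.12, which includes 0.

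*Atg9a*, the scramblase whose vesicles seed the membrane, had 289 and 134 reads, for a log2 ratio of 1.29 (widened -2.35 to 4.35). Its exons share 1832 bases with *Gm29253* on the same strand, which is not among the listed genes, and 46 bases with *Ankzf1* on the opposite strand, which had 359 and 184 reads, so its own reads are uncertain. *Wipi2*, the phosphoinositide reader that brings in ATG16L1, had 831 and 1453 reads, for a ratio of -0.62 (-1.87 to 0.63). Its relative *Wipi1* had 264 and 375 reads, for a ratio of -0.32 (-3.00 to 2.34).

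The conjugation machinery had a summed ratio near 0 and held the genes with the fewest reads. The 10 genes had 3036 Cd11c-active reads and 3187 Cd11c-lineage reads, a log2 ratio of 0.12 (widened -0.59 to 0.81) that was -0.02 under library totals. The median was 0.16, with 6 genes above 0 and 4 below, 1 more than 2-fold higher and 2 more than 2-fold lower, against 23.3% and 21.6% of all genes. Both lower ones, *Atg10* and *Atg16l2*, had under 200 reads, where 85.6% of all genes were past 2-fold.

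The activating enzyme of both ubiquitin-like systems and the conjugating enzyme of the ATG8 branch had nearly equal reads in the libraries. *Atg7*, the shared activating enzyme, had 572 and 569 reads, for a log2 ratio of 0.19 (widened -1.55 to 1.93). *Atg3*, the enzyme that passes ATG8 proteins to lipid, had 465 and 485 reads, for a ratio of 0.13 (-1.72 to 2.09), or -0.01 under library totals.

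The ATG12 branch builds the ATG12-ATG5-ATG16L1 complex that decides where LC3 is attached. *Atg5* had 443 and 241 reads, for a log2 ratio of 1.06 (widened -1.44 to 3.61), and 0.93 under library totals. *Atg12* had 330 and 288 reads, a ratio of 0.38. *Atg16l1*, whose product also recruits the machinery to single membranes in LC3-associated phagocytosis, had 599 and 482 reads, for a ratio of 0.50 (-1.39 to 2.26). All 3 parts of the complex had ratios above 0, and none was outside the scatter of its abundance.

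*Atg10*, which joins ATG12 to ATG5, had 0 Cd11c-active reads and 88 Cd11c-lineage reads. A count of 0 allows up to 3 reads if reads are independent and, multiplied by the overdispersion, up to 252. The 88 reads lie under that limit, so no fold is given, and 83.2% of the 500 genes nearest in abundance were past 2-fold. *Atg16l2*, the relative of *Atg16l1*, had 22 and 83 reads, for a log2 ratio of -1.71 (widened upper end 5.47, with no lower bound). It shares 25 exon bases on the opposite strand with *Fchsd2*, which had 1965 and 2476 reads. At these read numbers a difference of either gene was not detectable.

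The ATG4 proteases trim ATG8 proteins before conjugation and release them afterwards. *Atg4b*, the most active of them on LC3, had 211 and 445 reads, for a log2 ratio of -0.89 (widened -3.24 to 1.81), and was past 2-fold, at -1.02, under library totals. *Atg4a* had 177 and 314 reads, a ratio of -0.64, and *Atg4d* 217 and 192 reads, a ratio of 0.36. *Atg4d* overlaps *Kri1* on the opposite strand over 1405 exon bases (210 and 469 reads), so its reads are uncertain.

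**Figure D3:**
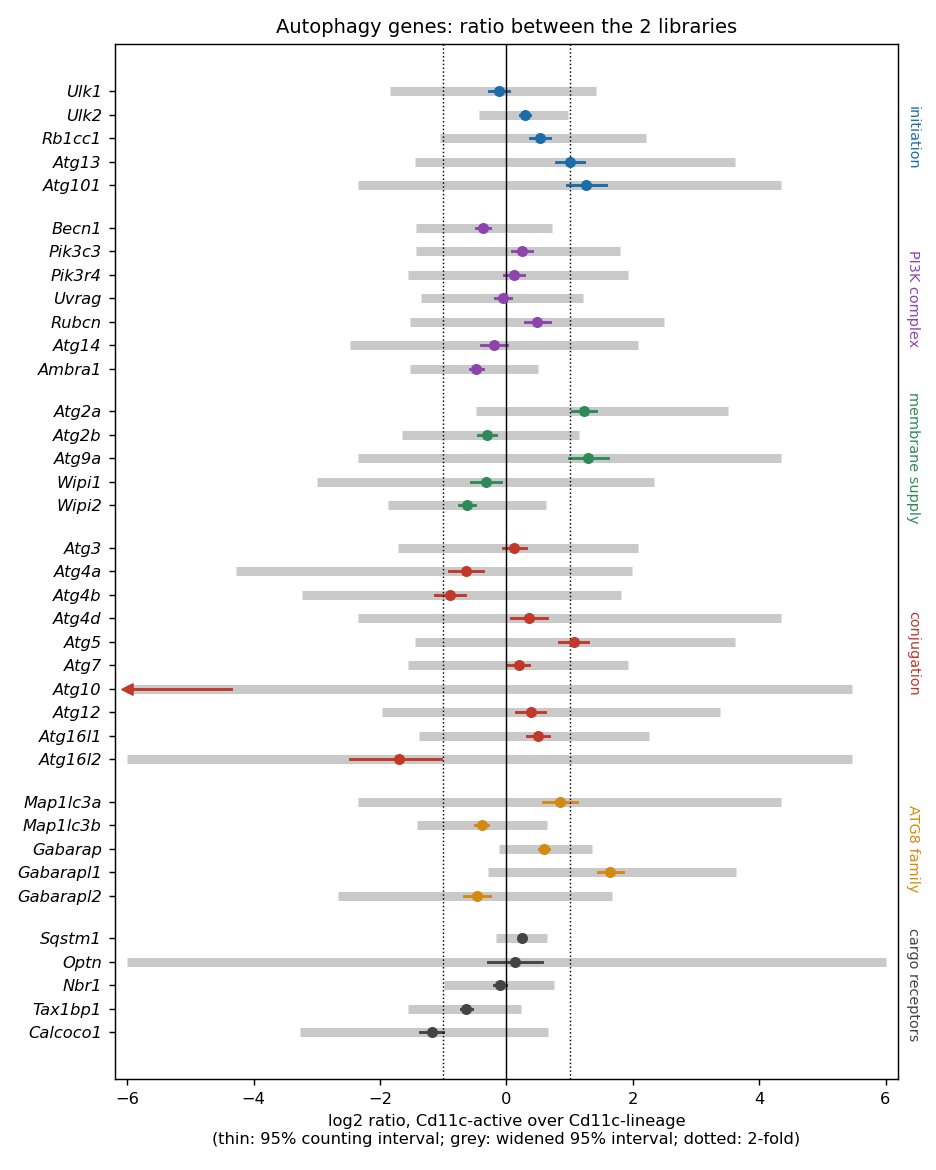
Log2 ratio of Cd11c-active over Cd11c-lineage for each of the 37 autophagy genes, ordered by role, with the 95% counting interval (thin line), the widened 95% interval (grey bar, cut at the edges of the axis) and the 2-fold limits (dotted). The arrow marks *Atg10*, with 0 reads in Cd11c-active, and all grey bars cross 0.

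The ATG8 family, the proteins placed on the membrane, had 5919 Cd11c-active reads and 5268 Cd11c-lineage reads. The log2 ratio of the sum was 0.35 (widened -0.15 to 0.87), and 0.11 without *Gabarap*, which carried 51.1% of the reads. The median was 0.59, and 0.12 after that correction for length and GC content. Members differed in sign, with *Gabarapl1*, *Map1lc3a* and *Gabarap* above 0 and *Map1lc3b* and *Gabarapl2* below.

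*Gabarapl1* had 832 Cd11c-active reads and 303 Cd11c-lineage reads (67.4 and 21.6 CPM). Its log2 ratio of 1.64 was the highest of the 37 genes, with a counting interval of 1.45 to 1.84 and a widened interval of -0.29 to 3.64. It stood above 95.6% of its 500 nearest genes in abundance, whose middle 95% ran from -1.55 to 2.21. Its exons share 570 bases with *1700101I11Rik* on the opposite strand, which is not among the listed genes, so its reads are uncertain to that extent. After correction for length and GC content the ratio of *Gabarapl1* was 1.40. In the authors' deposited table, which follows library totals for well-covered genes, *Gabarapl1* is listed with a log2 fold change of 1.51.

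*Gabarap*, the best-covered of the family, had 3257 and 2457 reads, for a log2 ratio of 0.59 (widened -0.12 to 1.36), above 92.0% of its nearest genes. After correction for length and GC content the ratio of *Gabarap* was 0.28. *Map1lc3b*, encoding LC3B, the usual marker of autophagosomes, had 1243 and 1852 reads, for a ratio of -0.39 (-1.42 to 0.65). *Map1lc3a* (LC3A) had 283 and 179 reads, for a ratio of 0.85 (-2.35 to 4.35) that was 0.12 after correction for length and GC content. *Gabarapl2* (GATE-16) had 304 and 477 reads, for a ratio of -0.46 (-2.67 to 1.68).

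As shares of the family's reads, which do not depend on scaling, *Map1lc3b* took 21.0% in Cd11c-active (widened exact binomial interval 12.3 to 32.4) and 35.2% in Cd11c-lineage (23.3 to 48.0). *Gabarapl1* took 14.1% (6.97 to 24.4) and 5.75% (1.76 to 15.5). Within the pair of *Gabarapl1* and *Map1lc3b*, chosen after the values were seen, *Gabarapl1* made up 40.1% in Cd11c-active and 14.1% in Cd11c-lineage. The log2 odds ratio of that split was 2.03, and its widened interval of -0.26 to 4.22 included 0.

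**Figure D4:**
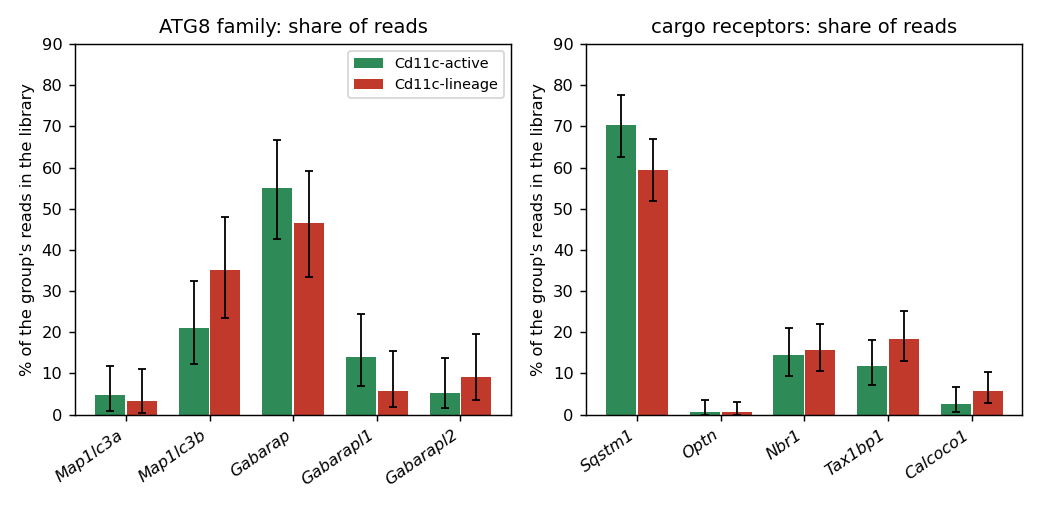
Share of the reads of the ATG8 family (left) and of the cargo receptors (right) that each gene took in Cd11c-active and Cd11c-lineage, with bars from 0 and widened exact 95% binomial intervals. *Gabarap* and *Sqstm1* take the largest shares of their groups in both libraries, and the intervals of the libraries overlap for every gene.

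The cargo receptors held the best-covered of the 37 genes. They had 12784 Cd11c-active reads and 14539 Cd11c-lineage reads, a log2 ratio of 0.00 (widened -0.32 to 0.32). *Sqstm1* supplied 64.5% of these reads. Without it the sum gave -0.44 (-1.02 to 0.11), so the sum of the group rests on that gene.

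*Sqstm1* encodes p62, a receptor for ubiquitinated proteins that is itself degraded by autophagy and whose transcription is known to answer to NRF2. It had 8982 Cd11c-active reads and 8651 Cd11c-lineage reads (727 and 616 CPM). The log2 ratio was 0.24 (95% intervals: counting 0.20 to 0.28 and widened -0.16 to 0.65), above 73.6% of its nearest genes. After correction for length and GC content the ratio was 0.08.

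*Nbr1*, a receptor of related structure that works with p62, had 1861 and 2268 reads, for a log2 ratio of -0.10 (widened -0.99 to 0.76). *Tax1bp1*, a receptor for ubiquitinated aggregates and bacteria, had 1522 and 2684 reads, for a ratio of -0.63 (-1.56 to 0.23), above 9.2% of its nearest genes. *Optn*, the receptor optineurin known from mitophagy, had 94 and 97 reads, a ratio of 0.14, and was thinly covered in both.

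*Calcoco1*, a receptor for autophagy of the endoplasmic reticulum and Golgi, had 325 Cd11c-active reads and 839 Cd11c-lineage reads (26.3 and 59.7 CPM). Its log2 ratio of -1.18 (95% intervals: counting -1.37 to -0.995 and widened -3.26 to 0.66) was the lowest among the 20 genes with at least 1000 reads. It stood above 6.2% of its nearest genes. *Sqstm1* and *Optn* had ratios above 0 and the other 3 receptors below. Of the 5 receptors *Calcoco1* alone was past 2-fold, against 44.9% of all genes, 9.57% of those with at least 1000 reads and 21.8% of the 500 genes nearest to *Calcoco1*.

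Further genes of the pathway were taken from 5 lists. Of 58 genes 54 had at least 20 reads, and 2 of these were more than 2-fold higher in Cd11c-active and 4 more than 2-fold lower, against 23.3% and 21.6% of all genes with at least 20 reads, and 16.2% and 14.2% of those with at least 200 and under 4000. The median log2 ratio was 0.02, and -0.11 under library totals, against 0.01 and -0.13 over all genes, and the widened interval excluded 0 for 0 of them.

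Among other phagophore genes 0 of 10 measured were more than 2-fold higher and 2 lower, beside the 23.3% and 21.6% of all genes, with a median log2 ratio of -0.28. *Atg4c*, the remaining ATG4 protease, had 155 and 434 reads, for a ratio of -1.30 (widened -4.53 to 1.48). *Wdr45*, a relative of the WIPI proteins, had 52 and 287 reads, for a ratio of -2.27 (-7.11 to 2.24). *Wdfy3*, the scaffold ALFY and the gene of this list with the most reads, had 4806 and 6703 and a ratio of -0.29 (-0.82 to 0.21).

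The fusion genes that join autophagosome and lysosome had 0 of 15 past 2-fold in either direction, and a median log2 ratio of -0.04. Past 2-fold were 44.9% of all genes, 30.4% of those with at least 200 and under 4000 reads and 2.61% of those with 3200 or more. *Rilp*, with 100 and 82 reads, was in the range under 200 reads, where the share was 85.6%. *Rab7*, the GTPase of late endosomes, had 4504 and 5360 reads, for a ratio of -0.06 (widened -0.61 to 0.49). Of 12 measured receptors outside the 37 genes 0 were past 2-fold, beside the same shares of all genes, and the median was 0.23. *Rtn3*, a receptor for tubules of the endoplasmic reticulum, had 3997 and 4452 reads, for a ratio of 0.03 (-0.55 to 0.63).

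The phagocyte NADPH oxidase, whose oxidants LC3-associated phagocytosis needs, had 22395 Cd11c-active reads and 24462 Cd11c-lineage reads over 7 genes, a log2 ratio of 0.06 (widened -0.18 to 0.31) that was -0.08 under library totals. *Ncf1*, the cytosolic subunit p47phox, had 5018 and 7063 reads, for a ratio of -0.31 (-0.80 to 0.20). The subunit gene *Ncf4*, encoding p40phox, was the 1 of the 7 past 2-fold, against 44.9% of all genes, with 120 and 399 reads, for a ratio of -1.54 (-7.70 to 1.02). *Cybb*, the catalytic subunit, had 456 and 828 reads, a ratio of -0.67 (-2.71 to 0.87). Its membrane partner *Cyba* had 3896 and 2912 reads, a ratio of 0.61 (-0.08 to 1.26), and the GTPase *Rac1* 6512 and 5263, a ratio of 0.49 (-0.003 to 0.997). These 2 genes lay above 0 and the other 5 of the list below.

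Of 10 regulators around AMPK and mTOR 2 were more than 2-fold higher and 1 lower, against 23.3% and 21.6% of all genes, with a median log2 ratio of 0.26. *Prkaa1*, the catalytic AMPK subunit that can phosphorylate ULK1, had 803 Cd11c-active reads and 328 Cd11c-lineage reads, a ratio of 1.48 (widened -0.29 to 3.64). *Deptor*, an inhibitor of mTOR, had 333 and 0 reads, with a widened lower end of -0.41 and no upper bound, and *Prkaa2* had 0 and 58 reads. *Prkag1*, the list's gene with the most reads, had 663 and 516 and a ratio of 0.55 (-1.11 to 2.41).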

How the data were processed

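RNA was measured in 2 libraries of sorted mouse retinal microglia, 1 per group. The authors deposited raw counts per gene as whole numbers, and beside them, per the file headers, the log2 fold change and mean log2 CPM of their own comparison. The submitters' processing notes name cutadapt 3.5, STAR 2.7.9a, featureCounts 1.6.3, edgeR 4.0.16 and genome build GRCm39. The annotation, strand setting and treatment of duplicates are not given in the sources used here. The smallest sum listed was 6 reads, and 0 columns were unmapped. The deposited log2 fold change follows library totals, as checked over 8780 genes with at least 50 reads in each library.

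TMM factors (0.954 and 1.05) came from edgeR 4.0.16 in R 4.3.3, and DESeq2 1.42.0 gave alternative size factors. The log2 ratio used reads plus 0.5, with exact Clopper-Pearson 95% intervals on reads (counting error only, as PCR copies cannot be told from separate molecules) and on reads divided by the overdispersion and rounded (widened). Overdispersion was 83.9 in 1978 genes with at least 800 and under 1600 reads and 125 from 3200, where widened intervals are too narrow. For genes with at least 20 and under 200 reads, and reads in both libraries, it was 35.0, and 83.9 was used there throughout. Length and GC content came from the longest GENCODE M21 transcript (GRCm38), which matched all 37 genes. With 1 library per group no count model could be fitted. Widened intervals take the typical gene as unchanged. The procedure was tested on simulated data. Python 3.11.15, scipy 1.17.1, pandas 2.3.3 and matplotlib 3.10.9 were used.

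The rule for named genes was at least 1000 reads or past 2-fold, and in the other lists past 2-fold with at least 200 reads, or the most reads. All other members are given with their reads and, for most, the same values. *Cybb*, *Cyba*, *Rac1* and *Prkaa2* fall outside the rule and were added after their values were seen. The members and lists were chosen with earlier results of these data known, and comparisons within pairs of related genes after the values were seen. 1 further gene first placed in the other lists was left out of their counts and is not reported here. Alternatives were library totals, DESeq2 size factors, scaling without ribosomal, mitochondrial and 7SK and 7SL genes or on genes with at least 1000 reads, a prior of 2 reads, no filter or at least 200 reads, removal of the trend with length and GC content, overdispersion by abundance class, sums without the best-covered gene, and exon union length.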

Additional observations from a re-analysis of the deposited data

How the results depend on the processing

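Scaling to library totals moved every log2 ratio by -0.14, and the median of the 37 genes then was -0.01, the lowest over all alternatives (highest 0.16). It gave *Pik3r4* and *Atg3* ratios of -0.02 and -0.01, and counts past 2-fold of 4 higher and 4 lower, as *Atg13* (0.87) and *Atg5* (0.93) dropped below the limit and *Atg4b* (-1.02) passed it. Over all genes the counts then were 2814 higher and 3081 lower, from 3033 and 2818. Removal of the trend with length and GC content took *Atg13* (0.92) and *Atg101* (0.73) below 2-fold and *Map1lc3a* from 0.85 to 0.12. With DESeq2 size factors or a prior of 2 reads *Atg13* alone fell short, at 0.996 and 0.998. With at least 200 reads required, 1262 of all genes were higher and 1091 lower, and 1 of the 37 genes was lower, since *Atg10* and *Atg16l2* were no longer tested. The cargo receptors gave -0.44 without *Sqstm1*. The widened interval excluded 0 for 0 of the 37 genes under all alternatives run, also with the overdispersion of each abundance class. No paired analysis was possible because each group had 1 library, and none could be left out. Depth limits thinly covered genes, and the widened interval of *Deptor*, with 333 and 0 reads, still included 0.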
